A study of Mus musculus with 6 samples.

Results

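Well-expressed long intergenic noncoding RNAs (lincRNAs) were followed in mammary tumors of NeuT/ATTAC mice that had been given IgG or anti-PD-1 mAb. They were the Ensembl gene IDs that GENCODE release M21 classes as lincRNA, that lie on the 19 autosomes, and whose FPKM (fragments scaled by exon length and library size) averaged at least 2 over the 6 tumors, with H19 and Meg3 left out. Of 5535 lincRNA IDs in the files, 4888 were on autosomes and not left out by name, 1996 of these were above 0 in at least 1 tumor, and 131 passed the level. The whole series held 54532 gene IDs. They were thus chosen by their mean FPKM over the tumors, so that their levels are a description. Just inside the level stood Gm38102 (mean 2.04) and Gm15675 (2.02), and just outside stood 2310040G24Rik (1.98) and Gm5113 (1.98).

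LincRNAs are transcripts of genes that stand between protein-coding genes, are usually spliced and capped, and carry no long reading frame. A few act as scaffolds of nuclear bodies, some bind and hold proteins or microRNAs, others serve as precursors of microRNAs or small nucleolar RNAs, and for many no function is known. In the mammary gland the best-known member is Pinc, the pregnancy-induced noncoding RNA, which rises in pregnancy and stays detectable in the gland after involution.

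The 6 tumors came from mice that carry the MMTV-NeuT transgene, in which the mouse mammary tumor virus promoter drives Erbb2 in mammary epithelium, and the FAT-ATTAC transgene, which was brought from C57BL/6 into the FVB strain and lets the dimerizer AP20187 ablate adipocytes. All mice, controls included, were injected with AP20187 at 0.4 mg/kg, starting at 6 weeks of age, to induce fibrosis (biweekly by the labels, triweekly in the text of the study), and received, from 8 weeks of age, 100 μg of either a matching IgG mAb (3 tumors) or an anti-PD-1 mAb (3 tumors) 2 times per week. The labels give 1 library per tumor and call the tumors of a group replicates, while the study's text describes pooled RNA, so that the p-values measure the spread between these samples. The remaining C57BL/6 background of each mouse and its age at tumor collection are not given in the labels. The comparison asks how tumor transcripts respond to the anti-PD-1 mAb. Values are given in the order of replicates 1, 2 and 3 throughout.

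FPKM times exon length fell on whole reads for 97.0 to 97.3% of the IDs above 0 in each tumor. The IDs that were whole in all 6 tumors gave between 21075641 and 23852764 reads per tumor. The reads of 127 of the 131 lincRNAs were whole in all 6 tumors, and the median lincRNA had 148.5 reads in a tumor, with a range from 0 to 46627 over lincRNAs and tumors. The 5 luminal epithelial markers summed to 1893 to 2629 FPKM in IgG-treated and 2490 to 3622 FPKM in anti-PD-1-treated tumors, a sum made up mostly of Epcam, Krt8 and Krt18. Of the 5 means 3 were higher and 2 lower, with Epcam higher (885, 861 and 690 against 988, 1150 and 1122 FPKM) and Krt19 lower (7.84, 77.9 and 7.46 against 4.09, 5.27 and 1.70 FPKM) without overlap. The 5 T cell markers summed to 1.02 to 3.99 against 0.488 to 1.35 FPKM, the 6 macrophage markers to 185 to 325 against 242 to 389.5 FPKM (6 of 6 means higher, Cd68 without overlap), and the 4 skeletal muscle markers ran from 0.104 to 110.0 and from 0.295 to 116 FPKM within the groups. These tumors are mixtures, in which fewer cells of a type and less RNA per cell cannot be told apart.

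The 131 lincRNAs made up 0.508 to 0.630% of the summed FPKM of a tumor, and 80.5 to 86.8% of that of all autosomal lincRNAs. Their levels were steep. Gm10076 alone held 29.1 to 39.5% of their sum, 3 lincRNAs averaged at least 100 FPKM, 28 averaged at least 10, and 76 lay between 2 and 5, with a median of 4.30 FPKM. Exon length ran from 254 to 20771 bases with a median of 1486 bases, against 1000 bases in the 4757 other autosomal lincRNAs. They also stood nearer to protein-coding genes than those others did. The median distance to the nearest protein-coding start was 30.3 kb against 64.4 kb, and 16 of 131 (12.2%) were divergent, that is, started within 1 kb of a protein-coding start on the opposite strand pointing away, against 4.73%. The gene body of 64 members (48.9%) overlapped another annotated gene, against 34.5%, and that of 15 overlapped a protein-coding gene, so that the word intergenic is the annotation's and not true of each.

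Between the groups, 0 of the 131 lincRNAs passed an adjusted p of 0.05 with limma, as did 0 of all 15069 genes tested (0.0%), and the smallest adjusted p of a lincRNA was 0.344. At an unadjusted p under 0.05 stood 18 (13.7%), 8 higher and 10 lower, beside 12.3% of all genes (6.22% higher and 6.05% lower). With limma's voom on the recovered reads 0 passed the adjusted and 17 the unadjusted threshold. The 3 values of 1 group all lay above the 3 of the other for 22 lincRNAs (16.8%), beside 18.1% of all genes, a share near the background. Of these, 16 (12.2%) were lower after anti-PD-1, beside 8.75% of all genes, and 6 (4.58%) were higher, beside 9.3%. The level that chose the lincRNAs bears on these counts, as 4 of the 16 lower ones (D530049I02Rik, Gm33586, AL805899.1 and Mir142hg) reached 2 FPKM in the mean of the IgG group only and 1 of the 6 higher ones (B230208H11Rik) in that of the anti-PD-1 group only. Fold changes here are anti-PD-1 minus IgG on the log2(FPKM + 1) scale, given with their SE, and that scale understates the change of low genes. Their median over the 131 was -0.05, and over all genes 0.01. An exact permutation test of 3 against 3 cannot give a p under 0.1.

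**Figure D1:**
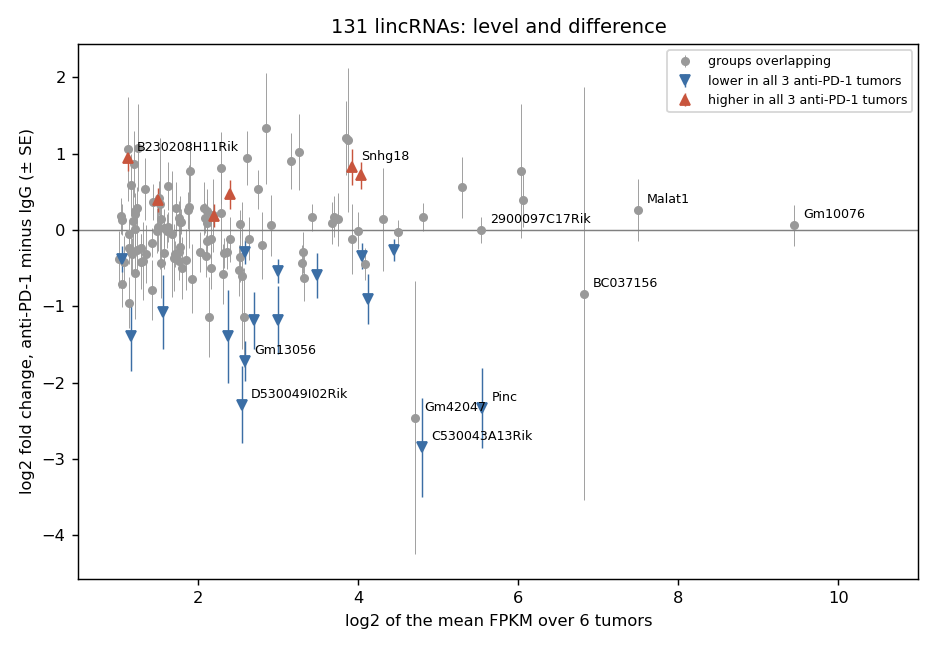
Log2 fold change of each of the 131 lincRNAs (anti-PD-1 minus IgG, with its standard error) against the log2 of its mean FPKM over the 6 tumors, with grey dots for overlapping groups, blue triangles for lincRNAs lower and red triangles for lincRNAs higher in all 3 anti-PD-1-treated tumors. Fold changes run from -2.85 to 1.33, and the wide errors of BC037156 and Gm42047 belong to genes high in 1 or 2 tumors.

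**Figure D2:**
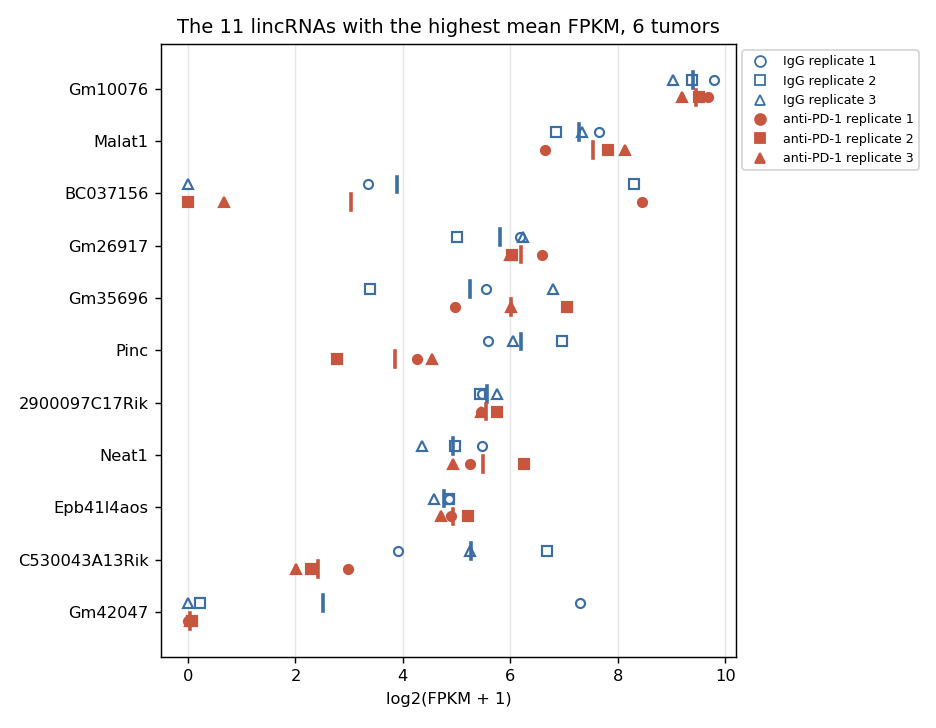
Level in each tumor of the 11 lincRNAs with the highest mean FPKM, on the log2(FPKM + 1) scale, with open blue marks for IgG-treated tumors, filled red marks for anti-PD-1-treated tumors, a marker shape for each replicate and a short vertical line at the group mean. Pinc and C530043A13Rik are the genes whose groups stand apart, BC037156 is high in 1 tumor of each group, and Gm42047 is high in IgG replicate 1 alone.

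The most abundant was Gm10076, with 884, 667 and 520.0 FPKM in IgG-treated and 817, 728 and 582 FPKM in anti-PD-1-treated tumors. The groups overlapped almost wholly (log2 fold change 0.06 ± 0.27). Its 384 bases on chromosome 14 (GRCm38 chr14:105681828-105682211, 1 exon, plus strand) matched the mRNA of Rpl41, a small protein of the large ribosomal subunit, at 99.5% over 383 bases. Rpl41 itself stood at 972, 634 and 564 against 778, 636 and 657 FPKM. The study names RSEM for its read counts, and the reads of Gm10076 were whole in all 6 tumors. How the counting behind these FPKM treated reads that match both copies is not given in the sources used here, so that the level of Gm10076 is uncertain. Its nearest protein-coding genes, the ubiquitin ligase adaptor Ndfip2 (8.97, 10.6 and 8.75 against 11.02, 10.7 and 10.6 FPKM) and the growth factor signaling inhibitor Spry2 (25.7, 29.6 and 30.2 against 30.3, 38.9 and 33.5 FPKM), lie 373 kb and 210 kb off and were higher without overlap. In all, 6 of the 131 had a copy at 95% identity or more over at least 50% of their longest transcript.

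Malat1 and Neat1, neighbors on chromosome 19, are the scaffold RNAs of the nucleus. Malat1 collects in nuclear speckles, where splicing factors are stored, and Neat1 builds paraspeckles. Malat1 read 201, 114 and 161 FPKM in IgG-treated and 99.4, 225 and 281 FPKM in anti-PD-1-treated tumors (log2 fold change 0.26 ± 0.41). Its lowest and its highest value were both in anti-PD-1-treated tumors. Neat1 read 43.3, 30.2 and 19.6 against 37.2, 75.7 and 29.7 FPKM (0.56 ± 0.40), with 1 anti-PD-1-treated tumor above all others and the remaining values mixed. The pair did not peak in the same tumor, Malat1 being highest in anti-PD-1 replicate 3 and Neat1 in replicate 2. Of 14 paraspeckle and speckle protein genes, none passed an adjusted p of 0.05, 7 had higher and 7 lower means, and their median log2 fold change was -0.04. Within that list Pspc1, a core paraspeckle protein, was higher without overlap (6.28, 3.91 and 3.69 against 6.50, 11.2 and 7.13 FPKM), and Srrm1, a speckle splicing coactivator, was lower without overlap (10.6, 15.3 and 20.3 against 9.40, 9.99 and 8.67 FPKM). Frmd8, the protein-coding gene 4.22 kb beyond Neat1, read 29.2, 19.9 and 14.4 against 40.4, 31.6 and 28.6 FPKM, where the lowest anti-PD-1-treated tumor was just under the highest IgG-treated tumor.

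Norad, listed as 2900097C17Rik, is the noncoding RNA activated by DNA damage and is found mostly in the cytoplasm. It was among the steadiest of the members. Its levels were 43.4, 42.5 and 53.2 FPKM in IgG-treated and 42.7, 52.6 and 43.0 FPKM in anti-PD-1-treated tumors, with a coefficient of variation of 11.2% over the 6 tumors and a log2 fold change of -0.00 ± 0.17. Its flanks Cnbd2 and Epb41l1 overlapped between the groups, with log2 fold changes of 0.18 ± 0.21 and 0.12 ± 0.25. Gm7292, a lincRNA on chromosome 6, matched Norad at 99.2% over 2537 aligned bases. It read 6.04, 6.13 and 10.0 FPKM in IgG-treated and 5.95, 0.131 and 2.82 FPKM in anti-PD-1-treated tumors, so that the groups were parted only by the narrow step from 5.95 to 6.04. Anti-PD-1 replicate 2 had 8 reads on it and every other tumor at least 169, and leaving it out took the log2 fold change from -1.39 to -0.67. As with Rpl41, how reads were split between the copies is not known.

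Cyrano, listed as 1700020I14Rik, is a conserved transcript known for a site of unusually long pairing with miR-7, by which it lowers that microRNA. Its levels were 17.9, 17.5 and 20.4 FPKM in IgG-treated and 15.1, 16.6 and 11.9 FPKM in anti-PD-1-treated tumors. Every anti-PD-1-treated tumor was below every IgG-treated tumor, and the means differed 1.28-fold (log2 fold change -0.34 ± 0.17, and -0.21 without anti-PD-1 replicate 3). The site lies at bases 2934 to 2959 of a GENCODE M21 transcript and is shown with the mature miR-7a-5p of RefSeq because the results give a level for this carrier of the site. Capitals mark 7 bases that pair with the seed (bases 2 to 8 of the microRNA) and a run of 13 that pairs with its bases 11 to 23. The last a of the site, opposite the first u of the microRNA, is left unmarked. In the microRNA line capitals mark the seed.
Cyrano site: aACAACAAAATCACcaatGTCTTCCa
miR-7a-5p: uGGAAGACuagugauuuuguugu
The flanking Chp1, a calcium-binding protein gene 7.27 kb away, went the other way without overlap (40.9, 30.4 and 42.7 against 44.7, 43.4 and 55.4 FPKM). Mature miR-7 was not analysed here.

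LincRNAs that carry small RNAs were 16 of the 131. Among the small nucleolar RNA hosts, Snhg18 was the one that stood apart, at 12.2, 9.25 and 10.0 FPKM in IgG-treated and 15.2, 17.1 and 27.3 FPKM in anti-PD-1-treated tumors. All 3 treated tumors were above all 3 controls, with means 1.89-fold apart (log2 fold change 0.83 ± 0.24). Snhg18 starts 148 bp from Sema5a, a semaphorin gene on the opposite strand, which read 5.05, 2.39 and 2.13 against 4.78, 5.23 and 7.73 FPKM and overlapped by 1 tumor. Snhg6 (20.1, 16.3 and 11.8 against 18.3, 17.2 and 11.9 FPKM), Snhg12 (3.08, 4.37 and 3.91 against 2.93, 3.98 and 2.02 FPKM) and Snhg20 (11.2, 10.96 and 8.12 against 10.7, 12.6 and 10.6 FPKM) overlapped. Snhg10 read 2.405, 2.84 and 2.48 against 3.47, 1.01 and 1.91 FPKM and overlapped as well. Over 13 tested small nucleolar RNA hosts of any biotype, 5 means were higher and 8 lower, with a median log2 fold change of -0.06 and Snhg18 the only one without overlap. Gas5, the most abundant noncoding host outside the lincRNA class, read 53.7, 60.5 and 32.1 against 25.7, 36.7 and 34.9 FPKM.

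Of 10 lincRNAs that hold a microRNA of RefSeq, 3 were lower without overlap (beside 8.75% of all genes) and none was higher, and since 2 of the 3, AL805899.1 and Mir142hg, reached a mean of 2 FPKM through the IgG-treated tumors only, nothing is read from that count. The mature microRNAs within the 3, taken from RefSeq on GRCm38, are shown with their seeds (bases 2 to 8) in capitals because the host is the measured transcript of each.
miR-31-5p, in AL805899.1: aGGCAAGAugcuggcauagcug
miR-31-3p, in AL805899.1: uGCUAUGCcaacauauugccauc
miR-101a-5p, in E130102H24Rik: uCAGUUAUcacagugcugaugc
miR-101a-3p, in E130102H24Rik: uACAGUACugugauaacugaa
miR-142a-5p, in Mir142hg: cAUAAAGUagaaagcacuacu
miR-142a-3p, in Mir142hg: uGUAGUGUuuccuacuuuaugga
None of these 6 share a seed. AL805899.1, the host of Mir31 on chromosome 4, read 2.26, 7.21 and 1.88 FPKM in IgG-treated and 0.934, 1.10 and 0.0387 FPKM in anti-PD-1-treated tumors (log2 fold change -1.39 ± 0.46, and -0.92 without IgG replicate 2). IgG replicate 2 held 53.7% of its sum, yet the other 2 controls were also above all treated tumors, and anti-PD-1 replicate 3 had only 1 read. Its flank Mtap, an enzyme of methionine salvage, read 6.58, 9.76 and 7.70 against 6.83, 7.76 and 6.81 FPKM and overlapped. E130102H24Rik, the host of Mir101a on the same chromosome, read 12.3, 12.2 and 15.7 against 4.85, 10.7 and 11.3 FPKM (-0.59 ± 0.30), with anti-PD-1 replicate 1 lowest by far (-0.25 without it). Jak1, the cytokine receptor kinase gene 81.2 kb away, was lower without overlap too (28.9, 47.3 and 43.8 against 21.2, 18.9 and 20.9 FPKM, log2 fold change -0.91 ± 0.21). Its highest treated value was in anti-PD-1 replicate 1, where the lincRNA was lowest. Ak4, an adenylate kinase gene nearer by at 62.5 kb, read 9.08, 1.31 and 7.03 against 10.9, 5.49 and 8.79 FPKM and overlapped, with the higher mean in the treated group. E130102H24Rik also overlaps another member, 0610043K17Rik, on the opposite strand. That member read 2.07, 3.79 and 2.45 against 0.761, 2.41 and 0.929 FPKM, and its groups overlapped. Since the use of strand in counting is not given, their reads cannot be told apart where the genes overlap.

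Mir142hg, the host of the blood-cell microRNA miR-142, read 2.36, 2.32 and 2.74 FPKM in IgG-treated and 1.74, 1.84 and 1.41 FPKM in anti-PD-1-treated tumors (log2 fold change -0.38 ± 0.17). The groups did not overlap, but the values rest on 14, 15 and 18 reads against 12, 12 and 9. Ptprc, which encodes the pan-leukocyte protein CD45, read 1.80, 2.22 and 1.21 against 1.64, 1.54 and 2.13 FPKM in these tumors and overlapped. The summed T cell markers (1.02, 3.99 and 1.39 against 0.596, 0.488 and 1.35 FPKM) overlapped as well, all 5 genes were too low to be tested, and their part in the level of Mir142hg was not tested. The other 7 hosts, Snhg10, Snhg20 and 6030407O03Rik among them, did not part the groups. Gm27028 read 11.8, 6.997 and 14.7 against 7.05, 8.99 and 9.81 FPKM, and 2900076A07Rik read 2.80, 3.66 and 3.56 against 1.69, 3.21 and 2.83 FPKM. Mir17hg, the host of the growth-promoting miR-17 to miR-92 cluster, read 8.35, 5.46 and 3.19 against 4.56, 5.64 and 4.26 FPKM. The let-7 host 6720427I07Rik read 7.25, 9.64 and 3.31 against 4.23, 5.95 and 4.01 FPKM. Their members are shown because the cluster groups by seed, miR-17-5p with miR-20a-5p, miR-19a-3p with miR-19b-3p, and the 3 let-7 forms together.
miR-17-5p: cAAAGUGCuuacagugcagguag
miR-20a-5p: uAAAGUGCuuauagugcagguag
miR-18a-5p: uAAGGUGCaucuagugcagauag
miR-19a-3p: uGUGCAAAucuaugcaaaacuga
miR-19b-3p: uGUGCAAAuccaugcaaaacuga
miR-92a-3p: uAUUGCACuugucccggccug
let-7a-5p: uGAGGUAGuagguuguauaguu
let-7f-5p: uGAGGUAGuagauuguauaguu
let-7d-5p: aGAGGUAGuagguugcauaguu

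Pinc, the pregnancy-induced noncoding RNA, was the most abundant lincRNA whose groups stood apart (GRCm38 chr1:73390775-73407569, minus strand, up to 6 exons). Its levels were 46.7, 123 and 64.9 FPKM in IgG-treated and 18.1, 5.82 and 22.4 FPKM in anti-PD-1-treated tumors. The highest treated tumor stood at less than the lowest control, the means differed 5.07-fold (78.3 ± 40.0 against 15.4 ± 8.59 FPKM, SD, n = 3 each), and the log2 fold change was -2.33 ± 0.53. These levels rested on 365 to 7651 reads per tumor. Leaving out each tumor in turn moved the fold change between -2.67 and -1.78. The adjusted p over 15069 genes was 0.344 (limma, Benjamini-Hochberg).

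Around Pinc lay 5 other members. D530049I02Rik, which overlaps Pinc on the opposite strand, read 5.66, 12.8 and 12.1 FPKM in IgG-treated and 1.32, 0.0734 and 3.07 FPKM in anti-PD-1-treated tumors (log2 fold change -2.29 ± 0.51). C530043A13Rik, which starts 0.12 Mb farther on, read 13.9, 102 and 36.9 against 6.85, 3.92 and 3.01 FPKM (-2.85 ± 0.65), the steepest difference of all 131. IgG replicate 2 held 61.1% of the sum of C530043A13Rik, and without each tumor in turn its fold change ran from -3.53 to -2.14. In all 3 lincRNAs IgG replicate 2 was the highest tumor. They are neighbors, and since the use of strand in counting is not given, reads of Pinc and D530049I02Rik cannot be told apart where they overlap, so that these are not 3 separate results.

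The other 3 members of the region behaved differently from Pinc. Gm29186, which overlaps C530043A13Rik on the opposite strand, read 1.79, 4.48 and 6.77 against 2.49, 1.5 and 3.76 FPKM and overlapped. Gm29183 (0.920, 1.00 and 6.95 against 0.742, 0.574 and 8.90 FPKM) and 6030407O03Rik (0.577, 0.256 and 6.46 against 0.896, 0.692 and 8.40 FPKM), which share a stretch 0.34 to 0.43 Mb from the start of Pinc, were high in replicate 3 of each group and low in the other 4 tumors. Mir6351, which lies inside 6030407O03Rik, was high in the same 2 tumors (8.28 and 9.78 FPKM). Of the protein-coding genes of the region, Igfbp5, which encodes a secreted binding protein of insulin-like growth factors prominent in the involuting gland, lies at -0.53 Mb and read 1599, 2804 and 1773 FPKM in IgG-treated and 823, 727 and 1026 FPKM in anti-PD-1-treated tumors. Its groups did not overlap either, with a log2 fold change of -1.23 ± 0.30. Tnp1, the nearest protein-coding gene on that side, was listed at 0 in every tumor, and Tns1, the nearest on the other side, was at 1.303, 1.22 and 1.65 against 1.73, 0.662 and 1.70 FPKM.

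**Figure D3:**
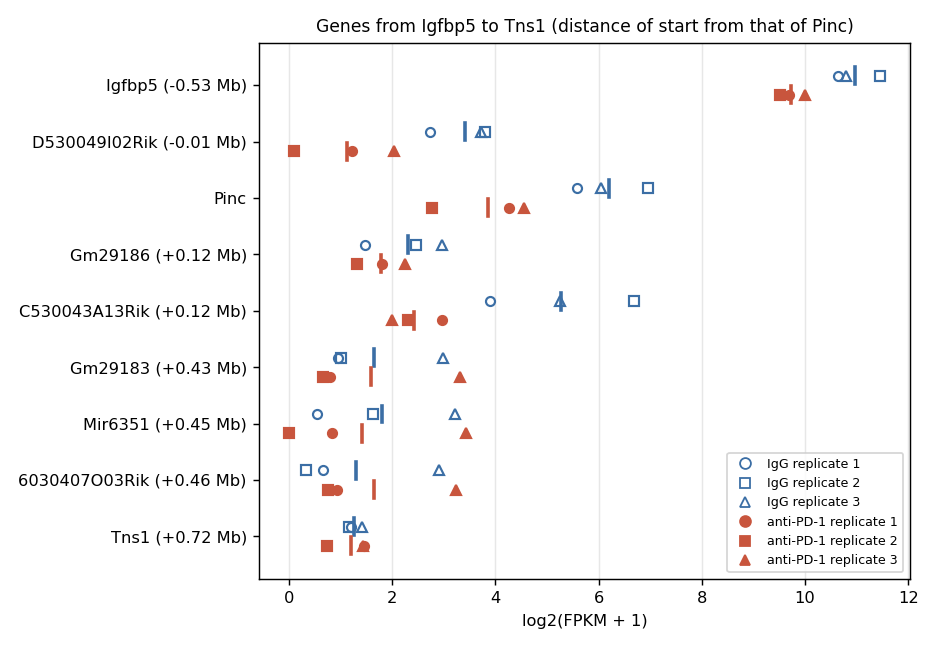
Genes from Igfbp5 to Tns1 on chromosome 1 that averaged over 0.5 FPKM, ordered by the distance of their start from that of Pinc (Mb, in brackets) and plotted per tumor as log2(FPKM + 1), with open blue marks for IgG-treated tumors, filled red marks for anti-PD-1-treated tumors and a line at the group mean. Igfbp5, D530049I02Rik, Pinc and C530043A13Rik keep the groups apart, while Gm29183, Mir6351 and 6030407O03Rik are high in replicate 3 of each group.

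BC037156, on chromosome 5 between the casein-cluster genes Odam and Csn3, was the third most abundant by mean and the least even of the 10 most abundant lincRNAs. It read 9.19, 315 and 0 FPKM in IgG-treated and 351, 0 and 0.587 FPKM in anti-PD-1-treated tumors. In each group 1 tumor was high, and 3 of the other 4 were near or at 0, so that the groups overlapped over nearly the whole range (log2 fold change -0.84 ± 2.71). The 0 in IgG replicate 3 allows up to 0.286 FPKM and that in anti-PD-1 replicate 2 up to 0.288 FPKM, the worth of 3 reads, counting error only. The milk protein genes Csn2 (43.7, 378 and 20.3 against 136, 18.6 and 5.09 FPKM) and Wap (1.44, 16.9 and 0.610 against 10.5, 0.327 and 0.334 FPKM), picked after the values of BC037156 were seen, had their highest values in the same 2 tumors, and each flank peaked in 1 of them. Odam, an enamel-associated protein gene 14.6 kb away, read 0.462, 5.54 and 7.86 against 10.4, 0.779 and 1.65 FPKM, highest in anti-PD-1 replicate 1 but next in IgG replicate 3, where BC037156 was 0. Csn3 was highest in IgG replicate 2 but high in every tumor (3142, 5677 and 1594 against 2129, 1631 and 3215 FPKM).

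The promoters of Pinc and BC037156, 250 bases before to 50 after the start in RefSeq on GRCm38.p6, are shown because these are the abundant lincRNAs tied to the mammary gland by name or place. Capitals mark matches to TTCNNNGAA (N, any base; read alike on each strand), the form of the element bound by STAT factors, among them the prolactin-activated Stat5. Each promoter held 1 match. The same letters were in 8.30% of 32851 promoters of the table, in 7.74% of 20150 promoters of protein-coding genes, and in 7 of the 78 promoters listed for 66 of the members (8.97%).
Pinc promoter, chr1:73407520-73407819, minus strand: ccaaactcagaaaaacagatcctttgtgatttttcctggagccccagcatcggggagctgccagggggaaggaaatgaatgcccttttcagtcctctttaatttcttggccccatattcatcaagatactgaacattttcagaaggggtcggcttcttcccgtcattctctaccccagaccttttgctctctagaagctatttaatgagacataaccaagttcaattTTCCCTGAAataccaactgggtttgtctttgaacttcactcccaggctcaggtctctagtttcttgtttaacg
BC037156 promoter, chr5:87908529-87908828, plus strand: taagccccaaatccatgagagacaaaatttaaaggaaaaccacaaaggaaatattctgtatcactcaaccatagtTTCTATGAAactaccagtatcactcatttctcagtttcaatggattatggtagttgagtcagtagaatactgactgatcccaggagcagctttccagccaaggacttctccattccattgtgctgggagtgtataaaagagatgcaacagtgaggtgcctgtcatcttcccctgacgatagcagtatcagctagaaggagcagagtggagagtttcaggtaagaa

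Some other lincRNAs did not part the groups. Gm26917, a ribosomal-RNA-like transcript on chromosome 17, read 71.5, 31.1 and 74.8 against 95.5, 64.4 and 62.3 FPKM (log2 fold change 0.40 ± 0.36), while the similar Gm42418 and AY036118 were listed at 0 in every tumor. Gm35696, between the signaling genes Rassf3 and Tbk1 on chromosome 10, read 45.9, 9.42 and 110.0 against 30.4, 132 and 63.5 FPKM, a span that neither flank shared. Epb41l4aos, a host of a small RNA on chromosome 18 that ends 341 bp from the end of Epb41l4a on the opposite strand, was even at 28.1, 28.1 and 22.8 against 28.7, 36.0 and 25.1 FPKM. Bvht, known as Braveheart from its part in heart development, read 10.9, 7.81 and 3.69 against 4.53, 10.6 and 7.71 FPKM and overlapped. AW112010, an interferon-induced transcript of immune cells chosen after its values were seen, read 16.99, 37.5 and 5.69 against 8.88, 32.6 and 17.6 FPKM, with the highest tumor of each group in replicate 2. Gm42047, the eleventh by mean and likewise chosen after its values were seen, read 156 FPKM in IgG replicate 1 (19412 reads, 99.8% of its sum), 0.162 FPKM in IgG replicate 2 and at most 0.0511 FPKM in the other tumors.

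Uneven levels were common among these lincRNAs. Their median coefficient of variation over the 6 tumors was 38.6%, against 21.6% for 10220 protein-coding genes that averaged 2 FPKM or more. At means between 2 and 5 FPKM it was 38.85% for 76 lincRNAs against 26.3% for 2581 protein-coding genes, without matching for exon length or reads per gene. The median standard deviation within groups on the log2 scale was 0.42 against 0.26 at those means, and 0.44 against 0.25 over all levels of at least 2 FPKM. These are values of the same 6 tumors and are given without a test. Of the steady ones, 32 stayed within 2-fold over all tumors, Gm47469 (10.8%), Tmem250-ps (11.05%) and Norad having the lowest coefficients of variation. By contrast, 21 ranged over more than 10-fold or held a 0, and 7 had more than 50% of their summed FPKM in 1 tumor, among them Gm42047, C530043A13Rik, BC037156, Gm32618 in IgG replicate 3 and Gm29337 in anti-PD-1 replicate 2. The highest tumor was IgG replicate 1, 2 or 3 for 14, 28 and 32 lincRNAs and anti-PD-1 replicate 1, 2 or 3 for 6, 33 and 18. Those shares (10.7, 21.4, 24.4, 4.58, 25.2 and 13.7%) stood beside 8.88, 20.99, 19.9, 16.5, 19.2 and 14.55% for the protein-coding genes of at least 2 FPKM.

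The 22 were picked for not overlapping, so that their differences are a description. Of the 16 lower ones, 10 had means at least 2-fold apart, and of the 6 higher ones 1 had. The adjusted p of the 22 lay between 0.344 and 0.624 (limma), and 15 had at least 50 reads in every tumor. Those already described are Pinc, D530049I02Rik, C530043A13Rik, AL805899.1, E130102H24Rik, Mir142hg, Cyrano, Gm7292 and, higher, Snhg18.

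Among the other lower lincRNAs, Gm13056 on chromosome 4 had the smallest unadjusted p. It read 7.49, 9.01 and 12.7 FPKM in IgG-treated and 1.66, 3.36 and 1.79 FPKM in anti-PD-1-treated tumors, means 4.29-fold apart (log2 fold change -1.72 ± 0.27). It rests on 93, 122 and 175 reads against 24, 46 and 24. Its flanks moved with it. Epha2, an ephrin receptor kinase gene 21.4 kb away, read 26.8, 72.9 and 96.6 against 11.6, 14 and 15.5 FPKM (-1.99 ± 0.44), and Arhgef19, 20.9 kb away, read 15.5, 27.9 and 35.7 against 12.5, 11.4 and 13.4 FPKM (-0.95 ± 0.29). In the lincRNA and in Epha2 alike, IgG replicate 3 was highest and every treated tumor was below every control.

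Gm20554, a transcript of 1 exon on chromosome 13, starts 256 bp from Irx2, an Iroquois homeobox gene on the opposite strand. It read 23.9, 22.04 and 25.8 FPKM in IgG-treated and 18.8, 19.3 and 21.03 FPKM in anti-PD-1-treated tumors, a gap of only 1.21-fold in the means (log2 fold change -0.26 ± 0.14). Irx2 (117, 136 and 99.01 against 89.3, 78.6 and 77.2 FPKM, -0.50 ± 0.18) and its paralog Irx1 on the other side (109, 172 and 126 against 91.0, 71.5 and 76.1 FPKM, -0.74 ± 0.22) were lower without overlap too. Gm38910 on chromosome 6 read 5.73, 7.76 and 6.73 against 5.63, 5.003 and 5.23 FPKM, parted by the step from 5.63 to 5.73 FPKM, and its neighbor Mansc1, 1.53 kb away, read 40.4, 47.6 and 54.1 against 29.4, 37.6 and 38.4 FPKM. Each of these lincRNAs was thus lower beside a lower gene.

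Others were lower beside genes that were not. Fam120aos starts 270 bp from Fam120a, an RNA-binding protein gene on the opposite strand, and read 8.73, 10.3 and 9.80 FPKM against 7.22, 5.91 and 5.77 FPKM (log2 fold change -0.54 ± 0.16). Fam120a itself read 54.6, 42.2 and 47.4 against 50.7, 58.5 and 54.1 FPKM and overlapped, with the higher mean in the treated group. AU020206, between Akap13 and Klhl25 on chromosome 7, read 12.9, 34.6 and 23.1 against 10.0, 11.3 and 12.5 FPKM (-0.90 ± 0.33, and -0.58 without IgG replicate 2). The step there is from 12.5 to 12.9 FPKM, and Klhl25, an adaptor of a ubiquitin ligase, was higher without overlap (6.16, 8.17 and 8.21 against 8.33, 9.16 and 10.8 FPKM). 4833427F10Rik, between Ddr1 and Ier3 on chromosome 17, read 6.10, 11.9 and 9.72 against 4.08, 5.37 and 1.57 FPKM (-1.18 ± 0.37), and both flanks overlapped.

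In Gm31108 and Gm33586 a single tumor stood far from the rest of its group. Gm31108, between C2cd5 and Etnk1 on chromosome 6, read 6.98, 6.23 and 22.7 FPKM in IgG-treated and 3.73, 5.03 and 3.12 FPKM in anti-PD-1-treated tumors (log2 fold change -1.17 ± 0.45), with IgG replicate 3 the highest by far. Gm33586, 26.4 kb from Rassf10 on chromosome 7, read 3.06, 3.92 and 5.42 against 2.85, 0.0462 and 2.36 FPKM (-1.07 ± 0.49), with a lone read in anti-PD-1 replicate 2. Without each tumor in turn the fold change of Gm31108 ran from -1.48 to -0.63, the latter without IgG replicate 3, and that of Gm33586 from -1.42 to -0.48, the latter without anti-PD-1 replicate 2.

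Among the other higher lincRNAs, B230208H11Rik, between Utrn and Stx11 on chromosome 10, had the largest difference, at 1.11, 1.17 and 1.22 FPKM in IgG-treated and 2.70, 3.54 and 3.28 FPKM in anti-PD-1-treated tumors, 2.72-fold (log2 fold change 0.94 ± 0.17). It rests on 28 to 34 reads against 79 to 98, and neither flank parted the groups. 1810058I24Rik, classed as a lincRNA although it is known to code for the small mitochondrial protein Stmp1, read 15.1, 10.8 and 10.9 against 19.9, 19.5 and 22.1 FPKM (0.72 ± 0.17). Its step from 15.1 to 19.5 FPKM was about as wide as the range of the IgG-treated tumors.

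Gm16001 starts 33 bp from Ogfod2, a gene for an oxygenase on the opposite strand, and read 3.76, 4.12 and 4.86 FPKM against 7.83, 5.78 and 5.27 FPKM (log2 fold change 0.47 ± 0.19). Ogfod2 (11.9, 10.3 and 14.3 against 16.3, 16.2 and 15.1 FPKM) and Abcb9, a lysosomal peptide transporter gene on the other side (1.85, 0.759 and 1.65 against 2.84, 3.54 and 4.40 FPKM), were higher without overlap as well. Lppos overlaps the LIM-domain gene Lpp on the opposite strand, with its start 81 bp from the nearest protein-coding start. It read 2.21, 2.16 and 2.53 against 3.46, 3.58 and 2.94 FPKM (0.39 ± 0.16). Gm47469 had the smallest difference of the 22, at 4.43, 3.88 and 4.35 against 4.64, 4.83 and 5.35 FPKM (0.19 ± 0.15), and shares near-identical sequence with Gm47467 (97.3% over 374 bases), so that its reads may be split.

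**Figure D4:**
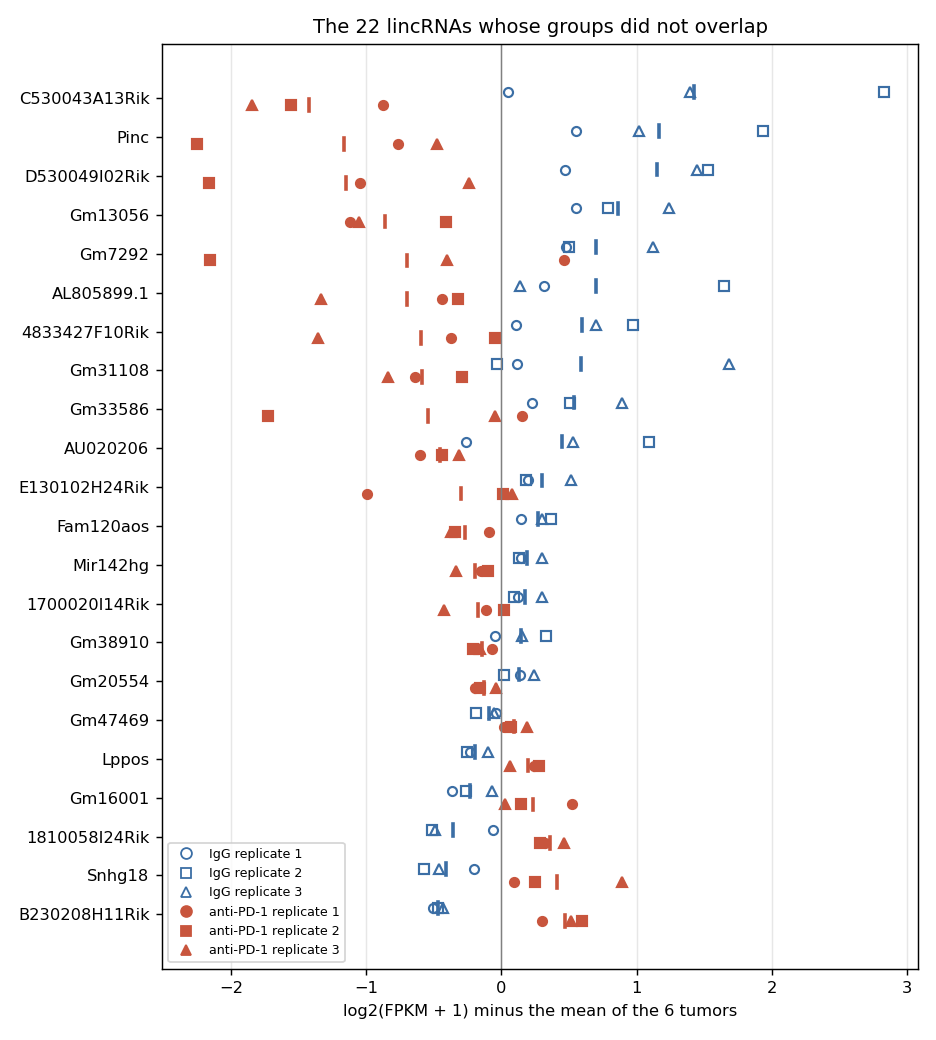
Values of the 22 lincRNAs whose groups did not overlap, per tumor as log2(FPKM + 1) minus the mean of the 6 tumors, ordered by log2 fold change, with open blue marks for IgG-treated tumors, filled red marks for anti-PD-1-treated tumors and a line at the group mean. The 16 lower lincRNAs are above and the 6 higher ones below, and the gap between the groups is narrow for Gm7292, AU020206, Gm38910 and Gm47469.

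Set side by side, the nearest protein-coding genes on either side of the 22 lincRNAs gave 34 distinct tested genes (Tns1 flanks 3 of the 22), of which 11 (32.4%) did not overlap, beside 18.1% of all genes. Around the 109 other lincRNAs 19 of 145 distinct genes (13.1%) did not overlap. Of the 22, 5 had a flank without overlap in the same direction (Gm20554, E130102H24Rik, Gm38910, Gm13056 and Gm16001) and 3 had one in the opposite direction (AU020206, Cyrano and Gm7292). The lincRNA and its flank are read from the same tumors and some flanks lie on chromosome 4, so that these counts are given without a test. The 16 divergent lincRNAs held 4 of the 22, Gm20554, Snhg18, Gm16001 and Fam120aos.

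**Figure D5:**
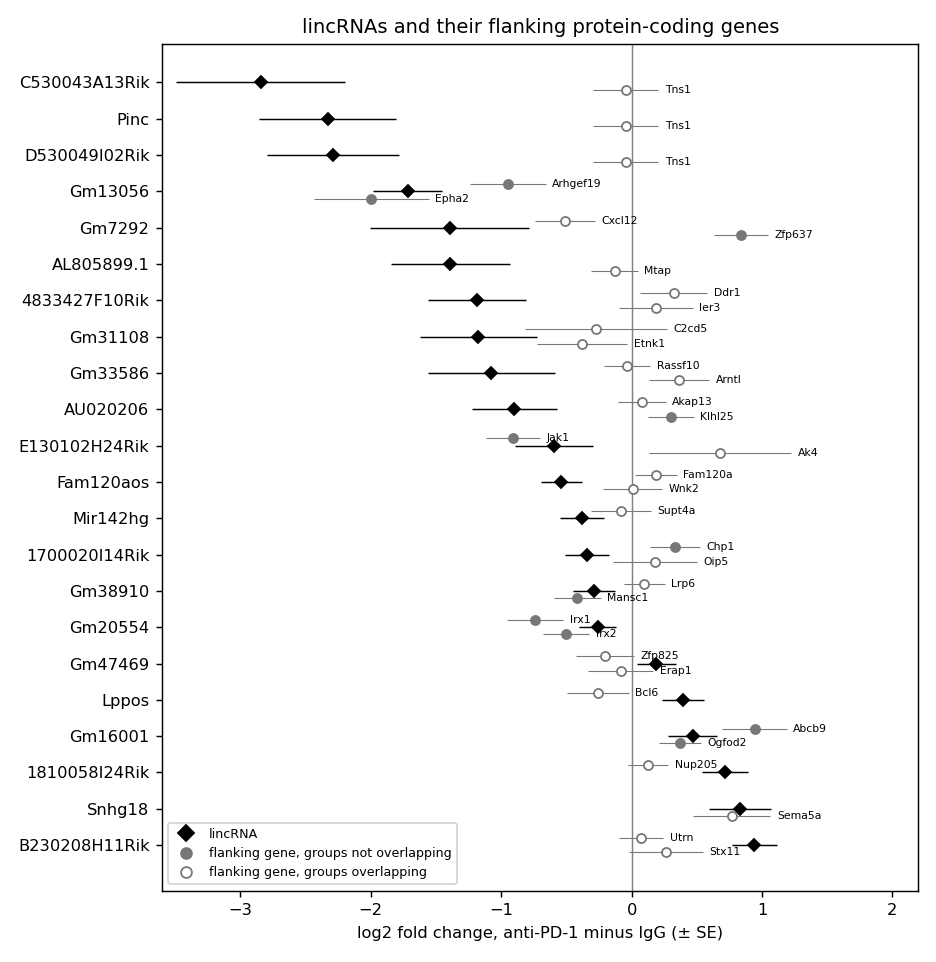
Log2 fold change (anti-PD-1 minus IgG, with its standard error) of the 22 lincRNAs whose groups did not overlap, as black diamonds, and of their nearest tested protein-coding gene on each side, as circles that are filled where the gene's own groups did not overlap. Epha2 and Arhgef19 sit left of 0 with Gm13056, Irx1 and Irx2 with Gm20554 and Jak1 with E130102H24Rik, while Zfp637 lies far to the right of Gm7292.

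By place, chromosome 1 held 16 members, more than any other, and the lower lincRNAs without overlap lay on 8 chromosomes. On chromosome 4 all 5 members had lower means, and their median log2 fold change was -0.70. Of these, 3 (Gm13056, AL805899.1 and E130102H24Rik) did not overlap, beside 8.75% of all genes lower without overlap. AL805899.1 and 0610043K17Rik reached a mean of 2 FPKM in the IgG group only, so that nothing is read from these counts. The 926 tested genes of that chromosome had a median of -0.41 relative to all genes, so that its genes as a whole were lower too. The flanks of these lincRNAs differed, however. Jak1, Epha2 and Arhgef19 were lower without overlap, while Mtap (-0.13 ± 0.18) and Ak4 (0.68 ± 0.54) overlapped. Chromosome 9, whose genes had a median of -0.36, held 2 members, 1 lower and 1 higher in mean. Of 8 factors of nuclear RNA decay and RNA 3′ ends, none passed an adjusted p of 0.05 (limma), 2 means were higher and 6 lower, and the median log2 fold change was -0.12. The one without overlap was higher, the poly(A)-binding Pabpn1 (16.6, 13.5 and 12.999 against 17.5, 19.4 and 18.6 FPKM).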

How the data were processed

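RNAseq of 6 NeuT/ATTAC tumors, 3 given IgG and 3 given anti-PD-1 mAb by the labels, was used. The authors deposited FPKM per Ensembl gene ID and tumor. The submitters' processing notes name FastQC 0.11.9, cutadapt 3.5, Bowtie2 2.4.1, RSEM 1.3.1, DESeq2 1.36.0 and mm10, and the strand used in counting is not given in the sources used here. FPKM was joined to GENCODE release M21 (Ensembl 96, GRCm38; 54495 IDs matched, 37 did not), although the study names Ensembl 99. FPKM times exon length was called whole within 0.1 of a read.

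FPKM was divided by median-of-ratios factors (1.002 to 1.010), 1 was added and log2 taken. Genes that averaged 0.5 FPKM or more, 15069 in all, entered limma 3.58.1 (R 4.3.3; lmFit, eBayes with trend, two-sided, Benjamini-Hochberg over all), and the scripts were tested on simulated data. Intervals and limits from reads cover counting error only. Copies were sought with blastn 2.17.0. Promoters and microRNAs came from RefSeq. Python 3.11.15, pandas 2.3.3 and matplotlib 3.10.9 were used.

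Named were the 10 most abundant lincRNAs, those whose groups did not overlap, the 2 on each side of the level, those of known role, and nearest or overlapping genes. The members and lists were chosen with earlier results of these data known. The alternatives tried were other pseudocounts, filters, normalizations and variance settings, voom on reads, the replicate block, each tumor left out, and medians without overlapping genes or relative to the chromosome. A fixed gene list and a sequence motif searched in transcripts are not reported here.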

Additional observations from a re-analysis of the deposited data

How the results depend on the processing

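Across the 14 alternatives, 14 of the 308 refitted fold changes of the 22 lincRNAs whose groups did not overlap moved by more than 1 SD, and since that choice and several alternatives fix the sign, nothing is read from its being kept. Leaving out each tumor in turn gave between 13 and 28 lincRNAs at an unadjusted p under 0.05, against 18 with all tumors, with 28 reached without IgG replicate 1. The lincRNAs whose groups did not overlap numbered between 27 and 51 of 131 with a tumor left out, against 22, where fewer tumors make overlap less likely by construction (22.9 to 35.5% of all genes). Without IgG replicate 1 or 3 they numbered 51 or 38, and without replicate 1 or 3 of the treated group 40 or 34. Over the same refits the median log2 fold change then ran from -0.105 to -0.042. Among all genes, 961 (without IgG replicate 2) to 2679 (without IgG replicate 1) had an unadjusted p under 0.05, against 1848, and 1158 did without anti-PD-1 replicate 3. Leaving out 1 tumor turned the sign of the fold change of BC037156, Gm10076, Gm26917, Gm35696, Malat1 and Norad, whose groups overlapped. The cause was not tested. No lincRNA passed an adjusted p of 0.05 under any alternative, the smallest being 0.0857 without IgG replicate 1, where 12 genes passed in all; 1 gene passed without IgG replicate 3 and 1 with voom.

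With the replicate number as a block, 23 lincRNAs (8 higher and 15 lower) had an unadjusted p under 0.05, against 18. Deviations of same-numbered tumors from their group means correlated at -0.16, 0.01 and 0.19. IgG replicate 3 and anti-PD-1 replicate 3 correlated best with each other, while the other tumors did not correlate best with their own number. Whether a shared number stands for a pairing or a batch cannot be told from these values. The other alternatives gave 15 to 19 such lincRNAs, 22 to 24 whose groups did not overlap, with Gm8066 added by FPKM as deposited, and medians from -0.089 to -0.01. Depth limits Mir142hg, B230208H11Rik and the lower values of Gm13056, Gm7292, Gm33586, D530049I02Rik and AL805899.1, which rest on few reads.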
